A study of Homo sapiens with 6 samples.

Results

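The HOX genes of the HOXA, HOXB, HOXC and HOXD clusters were examined in RNA-seq libraries of a human colorectal cancer cell line, with and without knockdown of CNOT7. Members were taken by annotation, with earlier results of these data known. They were all genes of the count table typed as protein-coding that carried a HOX name with a cluster letter and a number. This gave 39 genes of 58735, with 11 in HOXA, 10 in HOXB, 9 in HOXC and 9 in HOXD; 1 further row with the name HOXC5 was typed as a processed transcript and was left out. The labels name SW480, an established line grown from a human colorectal adenocarcinoma, with 3 control libraries and 3 CNOT7 knockdown libraries, both groups marked as untreated. Per the study, knockdown lines were stable and made with lentiviral short hairpin RNAs against CNOT7. The control columns of the count table are named shNc, and what shNc contains was not stated in the sources used here. Nor was it stated which hairpin the knockdown libraries carry, or whether the numbers in their names mark replicates or hairpins. The study's text names another colorectal line, HCT116, for the RNA-seq, so that the line is called here as it is labelled. No label states that the 3 libraries of a group came from separate cultures, and p-values therefore measure only the spread between these libraries.

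HOX proteins are homeodomain transcription factors that give cells their position along the body axis. The genes of a cluster lie in 1 row on a chromosome, numbered from the 3′ (anterior) end to the 5′ (posterior) end, and genes with the same number in different clusters are paralogs. In the adult, cell types keep a HOX code set by their origin: the gut epithelium and colorectal tumours are known to transcribe central and posterior HOX genes, and Polycomb and Trithorax group complexes hold the clusters silent or active. CNOT7 is a deadenylase subunit of the CCR4-NOT complex, which shortens the poly(A) tails of mRNAs, and the comparison asked which HOX transcripts stood at another level when CNOT7 was reduced.

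Libraries held 23788451 to 25982493 counts in controls and 27523812 to 29104872 in knockdown. CNOT7 itself measured 169, 191 and 176 CPM (counts scaled to library size by the trimmed mean of M values, TMM) in controls and 43.4, 47.2 and 38.6 CPM in knockdown, a log2 fold change of -2.05 (SE 0.073). Of 12 colorectal epithelial markers, 9 had at least 10 counts in every library, led by the keratin genes KRT8 and KRT18, and their summed level was 5607 to 6018 CPM in controls and 5174 to 5721 CPM in knockdown. The markers KRT20, CDX1 and LGALS4 were near 0 in both groups. Summed levels of the 6 fibroblast, 6 leukocyte and 5 endothelial markers were 9.07 to 10.8, 3.44 to 4.59 and 1.72 to 2.33 CPM in controls and 10.2 to 11.95, 5.62 to 6.35 and 2.89 to 3.59 CPM in knockdown, with COL3A1 and DCN at 0 in all libraries and PTPRC at 0 in all controls and 2 knockdown libraries. By the edgeR test used below, 2 of the 9 tested epithelial markers were higher and 3 lower at an adjusted p of 0.05. Of 3 tested leukocyte markers, 2 were higher, at the low sums given above. Of all tested genes 25.2% passed. The part of these markers in the HOX values was not tested.

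In control cells the HOX transcripts were dominated by the HOXB cluster. Levels of different genes are compared here per length, as RPKM, which is TMM-scaled CPM per kilobase of the gene length in the table. HOXB8, a central gene, stood first in controls at 65.9, 69.7 and 69.2 RPKM and held 20.5% of the summed level of the 39 genes. Below it came its neighbour HOXB7 at 41.5 ± 2.08 RPKM (SD, n = 3), HOXB6 at 28.9 ± 1.04, HOXA9 at 25.7 ± 1.65, HOXB9 at 22.2 ± 1.13, HOXB5 at 19.5 ± 0.562 and HOXB3 at 18.1 ± 0.394. The ranges of the 3 control libraries did not overlap between any neighbours among these 7 genes. HOXC10 came lower, at 12.1 RPKM. Further down the order, HOXC8 and HOXB2, HOXA11 and HOXB4, HOXB4 and HOXC6, and HOXC6 and HOXC9 overlapped. HOXA5 followed at 9.83 RPKM, HOXC8 at 7.54, HOXB2 at 7.51, HOXA11 at 5.93, HOXB4 at 5.82, HOXC6 at 5.44 and HOXC9 at 5.05 RPKM. The remaining genes stood below 5 RPKM, down to HOXD1 at 0.103 RPKM among the genes with enough counts for a test.

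Of the 39 genes, 35 passed the filter on low counts. The others, HOXB1, HOXD3, HOXD4 and HOXD12, held 0 to 5 counts in any library, so a difference in them was not detectable at this depth. In the plot of levels, HOXB2 to HOXB9 form a block of transcribed genes between HOXB1, near the floor, and HOXB13 at 3.14 RPKM.

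**Figure D1:**
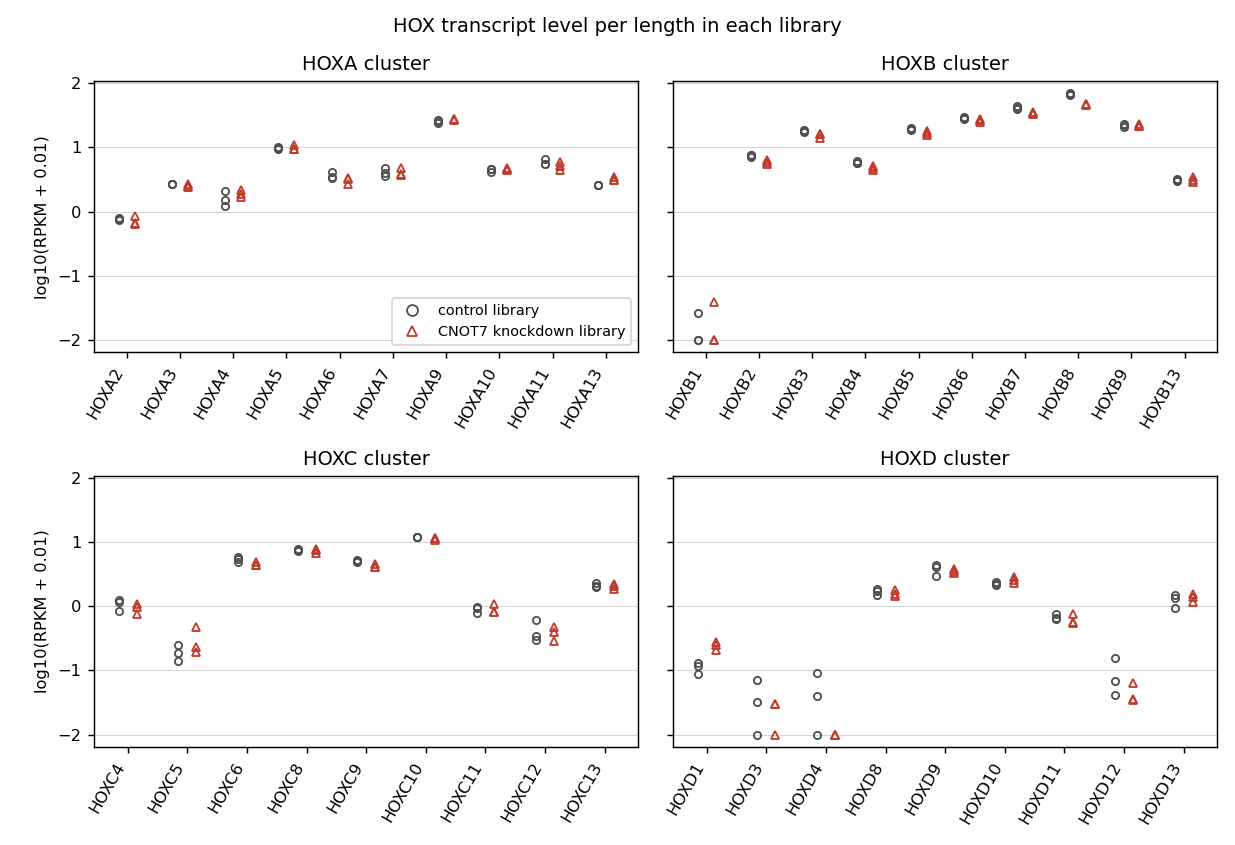
Level of HOX genes in each library as log10(RPKM + 0.01), by cluster and in the order of the paralog numbers. Circles are the 3 control libraries and triangles the 3 CNOT7 knockdown libraries. HOXB8 stands highest in both groups, at a mean of 68.3 RPKM in controls and 46.8 RPKM in knockdown.

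Summed over its members, the HOXB cluster was lower in every knockdown library than in any control library. The sum was 214, 211 and 219 RPKM in controls and 175, 172 and 181 RPKM in knockdown, a ratio of 0.82 between the means of 214.9 ± 4.15 and 176.3 ± 4.56 RPKM (SD, n = 3 each). Much of this difference was HOXB8 alone, at means of 68.3 RPKM in controls and 46.8 RPKM in knockdown. The HOXB share of all HOX RPKM was 64.6% in controls and 60.04% in knockdown. HOXA measured 73.2 ± 0.754 RPKM in controls and 75.5 ± 1.84 in knockdown, and HOXC 34.7 ± 0.166 and 31.8 ± 0.469 RPKM. For both sums the 2 groups did not overlap, at ratios of 1.03 and 0.917. HOXD measured 9.91 ± 1.03 RPKM in controls and 9.99 ± 0.159 in knockdown, and its groups overlapped. The sums are descriptions and were not tested, nor was the difference between clusters. In bulk RNA, fewer cells that transcribe a gene and less RNA per cell cannot be told apart.

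**Figure D2:**
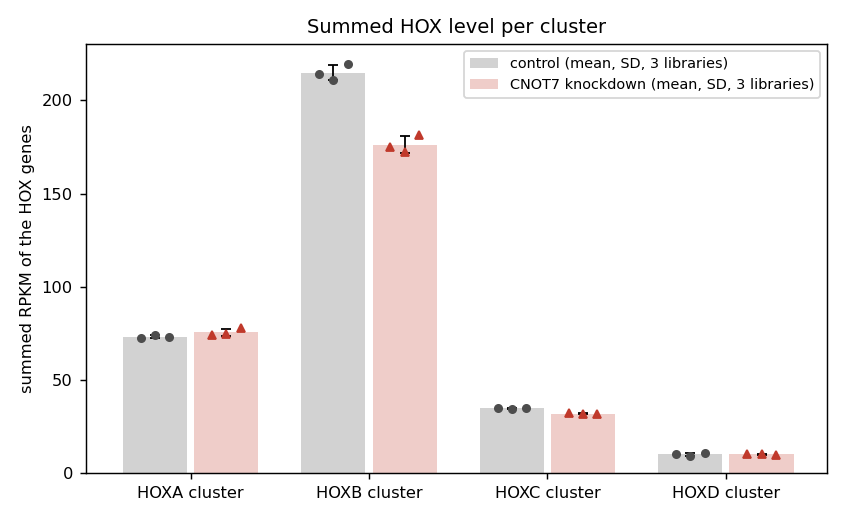
Summed RPKM of the HOX genes of each cluster. Bars are the means of 3 libraries, error bars the SD, and points the single libraries, with controls in grey and CNOT7 knockdown in red. The HOXB bars stand at 214.9 and 176.3 RPKM with no overlap between the points.

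Gene by gene, 8 of the 35 tested HOX genes passed an adjusted p of 0.05 in the quasi-likelihood test of edgeR, adjusted by Benjamini-Hochberg over all 17574 tested genes. This is 22.9% of the HOX genes tested, against 25.2% of all tested genes, so the family as a whole did not hold more calls than the background. By direction, 1 HOX gene was higher and 7 were lower in knockdown, where 13.3% of all tested genes were higher and 11.9% lower. Groups of libraries did not overlap for 11 HOX genes, 2 higher and 9 lower, and 38.8% of all tested genes had this property. The median log2 fold change was -0.09 over the tested HOX genes and 0.00 over all tested genes. Once a trend of fold change with abundance was removed, these medians were -0.15 and -0.01. HOXB held 6 of the 7 lower calls, and no HOXD gene passed by edgeR or DESeq2, where 1 of the 6 tested had an unadjusted p below 0.05 by edgeR. None of the 8 reached a log2 change of 1 in either direction.

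**Figure D3:**
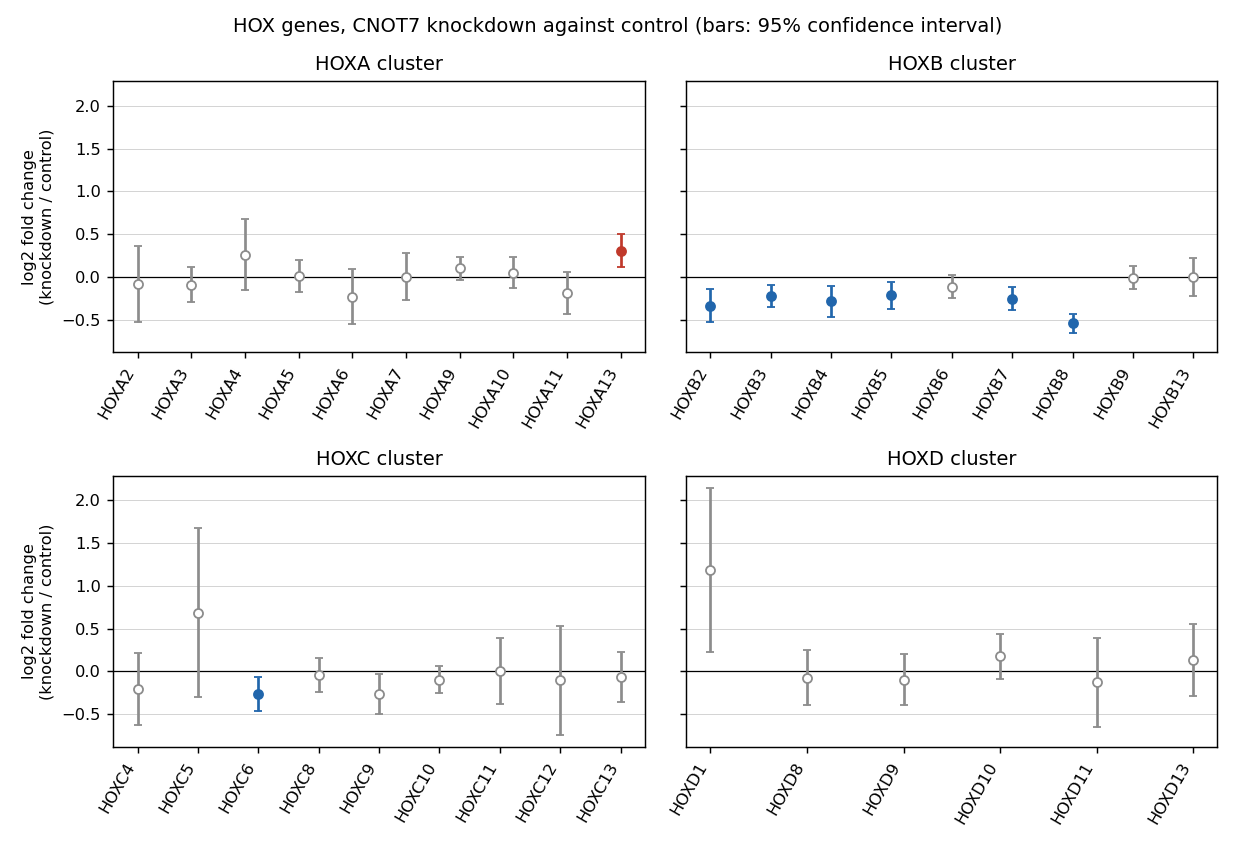
Log2 fold change of tested HOX genes, knockdown over control, by cluster in the order of the paralog numbers, with 95% confidence intervals. Filled blue points are lower and the filled red point is higher at an adjusted p of 0.05 (edgeR), and open grey points did not pass. The blue points fill most of the HOXB panel, where 6 of 9 tested genes passed.

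In the HOXB cluster, on chromosome 17, the transcripts from HOXB2 to HOXB8 passed as lower in knockdown except for HOXB6. At the posterior end, HOXB9 and HOXB13 overlapped between the groups and did not pass. HOXB2, an anterior gene that helps to pattern the hindbrain, measured 18.1, 16.8 and 17.7 CPM in controls and 12.9, 13.7 and 15.1 CPM in knockdown. Its log2 fold change was -0.34 (SE 0.092, edgeR adjusted p = 0.0121). HOXB3, its neighbour on the 5′ side, measured 138, 136 and 132 CPM in controls and 119, 106 and 121 CPM in knockdown. The knockdown libraries lay below all controls for both genes, and HOXB3 fell by 0.23 on the log2 scale (SE 0.060, edgeR adjusted p = 0.00973). HOXB4, known for expanding blood stem cells when it is overexpressed, measured 22.7, 21.2 and 21.6 CPM in controls and 19.1, 16.4 and 18.1 CPM in knockdown. It fell by 0.29 (log2, SE 0.086, edgeR adjusted p = 0.0195), with knockdown library 2 the lowest.

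HOXB5, a gene with a known role in the enteric nervous system and the lung, measured 40.5, 38.4 and 40.2 CPM in controls and 31.4, 34.7 and 36.4 CPM in knockdown. The groups did not overlap, and it fell by 0.22 on the log2 scale (SE 0.074, edgeR adjusted p = 0.0394). HOXB6 measured 77.6, 72.2 and 75.8 CPM in controls and 71.0, 64.0 and 73.3 CPM in knockdown. Here 1 knockdown library lay inside the control range, and the log2 fold change of -0.12 (SE 0.065) did not pass (edgeR adjusted p = 0.214). HOXB7, often studied as a growth-promoting gene in carcinomas, measured 62.6, 60.7 and 66.9 CPM in controls and 51.6, 53.0 and 54.3 CPM in knockdown. Its knockdown libraries were all below the controls, with a log2 fold change of -0.26 (SE 0.064, edgeR adjusted p = 0.00618).

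HOXB8, a central gene known for holding myeloid progenitors in a dividing state, was the most reduced of the HOX genes tested. It measured 135, 143 and 142 CPM in controls and 97.3, 93.2 and 97.2 CPM in knockdown. The gap between the groups was wider than the range inside either of them, at a log2 fold change of -0.55 (SE 0.055, edgeR adjusted p = 1.44e-06), a drop to 0.685 of the control mean. HOXB9, the next gene on the 5′ side, measured 57.4, 54.5 and 60.3 CPM in controls and 56.3, 59.5 and 55.3 CPM in knockdown, and its groups overlapped. Its log2 fold change was -0.01, with a 95% confidence interval of -0.15 to 0.13. HOXB13, which lies apart from the rest of the cluster and is best known from prostate and distal colon, measured 11.3, 10.5 and 10.8 CPM in controls and 10.1, 10.6 and 11.9 CPM in knockdown, with an interval of -0.22 to 0.21. The interval of HOXB13 takes in the value at which HOXB5 passed, and the difference between HOXB13 and HOXB5 was not tested. The signs of the estimates of HOXB9 and HOXB13 turned under other settings.

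**Figure D4:**
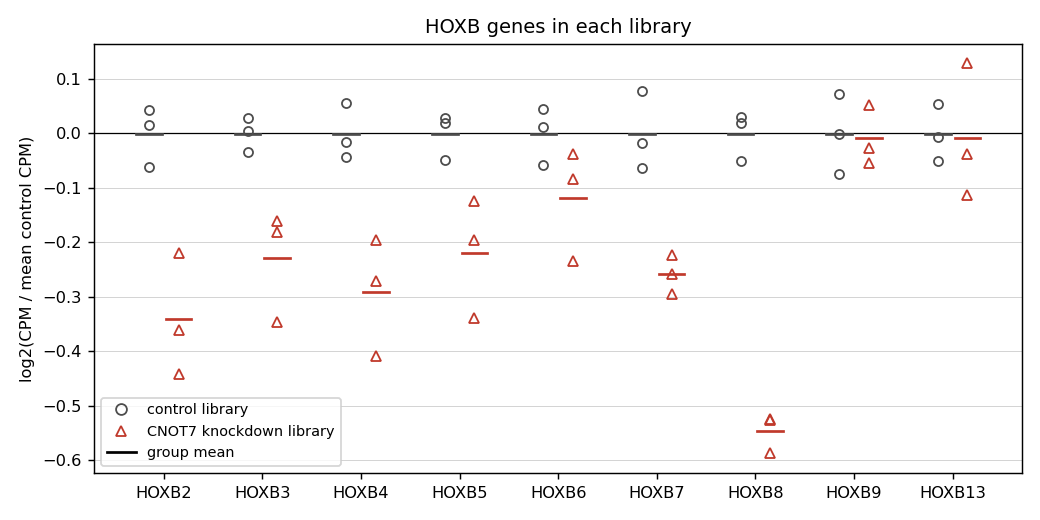
The 9 tested HOXB genes in each library as log2 of CPM over the mean CPM of the 3 controls, with controls as circles, CNOT7 knockdown as triangles and short lines for group means. From HOXB2 to HOXB8 all triangles but those of HOXB6 lie below every circle, HOXB8 lies lowest, and the groups overlap for HOXB9 and HOXB13.

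The single libraries decided several of these calls. Without each of the 6 libraries in turn, HOXB3 and HOXB8 passed in 6 of 6 fits, HOXB2 and HOXB7 in 5, and HOXB4 and HOXB5 in 3. HOXB2 missed without knockdown library 1 (edgeR adjusted p = 0.0669), and HOXB7 without control library 3 (edgeR adjusted p = 0.0603). HOXB4 missed without control library 1, control library 3 or knockdown library 2 (edgeR adjusted p = 0.0742, 0.0571 and 0.0583). HOXB5 missed without control library 1, control library 3 or knockdown library 1 (edgeR adjusted p = 0.11, 0.128 and 0.182), and with the abundance trend removed (0.0641). Without each library HOXB8 stayed between -0.57 and -0.53 on the log2 scale. With the abundance trend removed, HOXB8 was -0.49 and HOXB3 was -0.17, where HOXB3 passed narrowly (adjusted p = 0.0496 by limma and edgeR). HOXB genes lower numbered 3 without control library 3 and 4 without control library 1 or knockdown library 1.

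A ratio of neighbouring genes within a library does not depend on how libraries are scaled. The log2 ratio of HOXB8 to HOXB9 in CPM was 1.24, 1.39 and 1.23 in controls and 0.79, 0.65 and 0.81 in knockdown, a difference of -0.54. For HOXB8 to HOXB7 the ratio was 1.11, 1.24 and 1.09 in controls and 0.91, 0.81 and 0.84 in knockdown, a difference of -0.29. For HOXB7 to HOXB9 it was 0.13, 0.16 and 0.15 in controls and -0.13, -0.17 and -0.03 in knockdown. All 3 ratios were lower in every knockdown library than in any control. The exact two-sided permutation test gave p = 0.1 for each, the smallest value that 3 against 3 libraries allow, and these pairs were picked with the genes' values known.

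Counting can split reads between HOX genes whose exons overlap. In GENCODE 29, whose exonic lengths match the deposited lengths of all 39 genes, HOXB8, HOXB7 and HOXB9 share no exonic base with another gene. HOXB3 shares 7.94% of its exonic bases with genes on the same strand (HOXB4 and HOXB6), HOXB4 shares 17.1% and HOXB6 16.6%. HOXB6 also shares 16.3% with the antisense gene HOXB-AS3. The strand setting of the counting was not stated, and the library kit in the labels does not mark strand, so that sense and antisense reads cannot be told apart.

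The HOX clusters also encode microRNAs that are known to act on HOX mRNAs: miR-10 genes lie in HOXB and HOXD, and miR-196 genes in HOXA, HOXB and HOXC. The mature forms from RefSeq (GRCh38.p14) are shown because the match to HOXB8 mRNA is read against them, with the seed (bases 2 to 8) in capitals. The miR-196 family shares 1 seed. MIR196A1 lies at chr17:48632532-48632553 (minus strand) within the HOXB cluster, MIR196A2 at chr12:53991762-53991783 (plus strand) within HOXC, MIR196B at chr7:27169528-27169549 (minus strand) within HOXA, and MIR10A at chr17:48579904-48579926 (minus strand) within HOXB. Mature microRNAs were not measured in these libraries.
miR-196a-5p: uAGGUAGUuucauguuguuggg
miR-196b-5p: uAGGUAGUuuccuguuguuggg
miR-10a-5p: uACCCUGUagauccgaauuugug

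HOXB8 mRNA is known to be cleaved at a miR-196 site in its 3′ UTR. The sites below come from the 3′ UTRs of GENCODE 29 (GRCh38), read 5′ to 3′ along the mRNA in DNA letters, with capitals for bases that form a Watson-Crick pair with miR-196a-5p when both are aligned without gaps. They are shown for HOXB8, which had the longest match of the HOX genes, HOXA7 and HOXB7, which hold an exact match to the seed, and HOXD8, a paralog of HOXB8. HOXB8 lies at chr17:48612770-48612791 (minus strand), HOXA7 at chr7:27154430-27154451 (minus strand), HOXB7 at chr17:48607614-48607635 (minus strand) and HOXD8 at chr2:176131896-176131917 (plus strand).
HOXB8: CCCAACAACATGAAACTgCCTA
HOXA7: CCtActccCcTaAAACTACCTA
HOXB7: aaCActgAaAaaAtACTACCTA
HOXD8: CtCAACAACgTaAActTcCtaA

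In HOXB8, 21 of 22 bases paired and the last formed a G:U pair inside the seed, so that a search for exact seed matches missed it. Of 13565 tested genes with a 3′ UTR of this length or more, 2 reached 22 paired or G:U bases, HOXB8 with 21 pairs and AKTIP with 17, and the median gene reached 17 of either kind. AKTIP had a log2 fold change of -0.09. HOXD8, with 14 pairs and 4 G:U pairs, measured 4.51, 3.87 and 4.95 CPM in controls and 4.08, 3.80 and 4.77 CPM in knockdown, and its groups overlapped.

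Letters that match the miR-196 seed exactly, ACTACCT on the mRNA strand, stood in the 3′ UTR of 9 of 39 HOX genes and of 7.76% of 13589 tested genes. Those tested included HOXA5, HOXA7, HOXA9, HOXB6, HOXB7, HOXB13 and HOXC8, and of them HOXB7 was lower. HOXA7 held 4 such matches, at a log2 fold change of 0.00 and an interval of -0.28 to 0.28. Over all tested genes, the median log2 fold change was 0.01 with a match and -0.01 without. The miR-10 match, ACAGGGT, stood in 3 HOX genes, HOXA3 and HOXB3 among them, and in 14.7% of tested genes. The hairpin gene MIR196A1, as a row of the table, held 21, 10 and 13 counts in controls and 10, 11 and 9 in knockdown and did not pass (log2 fold change -0.75, edgeR adjusted p = 0.198). These matches are descriptions, and their part in the HOXB8 level was not tested.

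Flanking genes of the HOXB cluster did not follow the HOXB genes as a block. On the anterior side, SKAP1, which encodes a T cell adaptor protein and lies 98.3 kb from the cluster, measured 28.7, 25.9 and 26.0 CPM in controls and 44.0, 48.4 and 47.9 CPM in knockdown. All knockdown libraries were above the controls, with a log2 fold change of 0.80 (SE 0.074, edgeR adjusted p = 5.31e-07). CBX1, the HP1 beta gene of heterochromatin, 427 kb away, was lower at -0.33 (SE 0.058, edgeR adjusted p = 0.000408), and SNX11 had a value of -0.23 that did not pass. On the posterior side, TTLL6, a tubulin glutamylase gene 33.1 kb away, was higher at 1.21 (SE 0.358, edgeR adjusted p = 0.0191) from 0.258 to 0.598 CPM in controls, with a pass in 3 of the 6 fits that left a library out and none with the abundance trend removed, while CALCOCO2 and ATP5MC1 did not pass. No noncoding gene of the HOXB cluster passed by edgeR or DESeq2, and 1 of 8 tested, AC103702.2, had an unadjusted p below 0.05 by edgeR. Among them HOXB-AS3, the most abundant at 39.6 to 47.0 CPM in controls, had a log2 fold change of -0.19 and LINC02086 of 0.22.

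**Figure D5:**
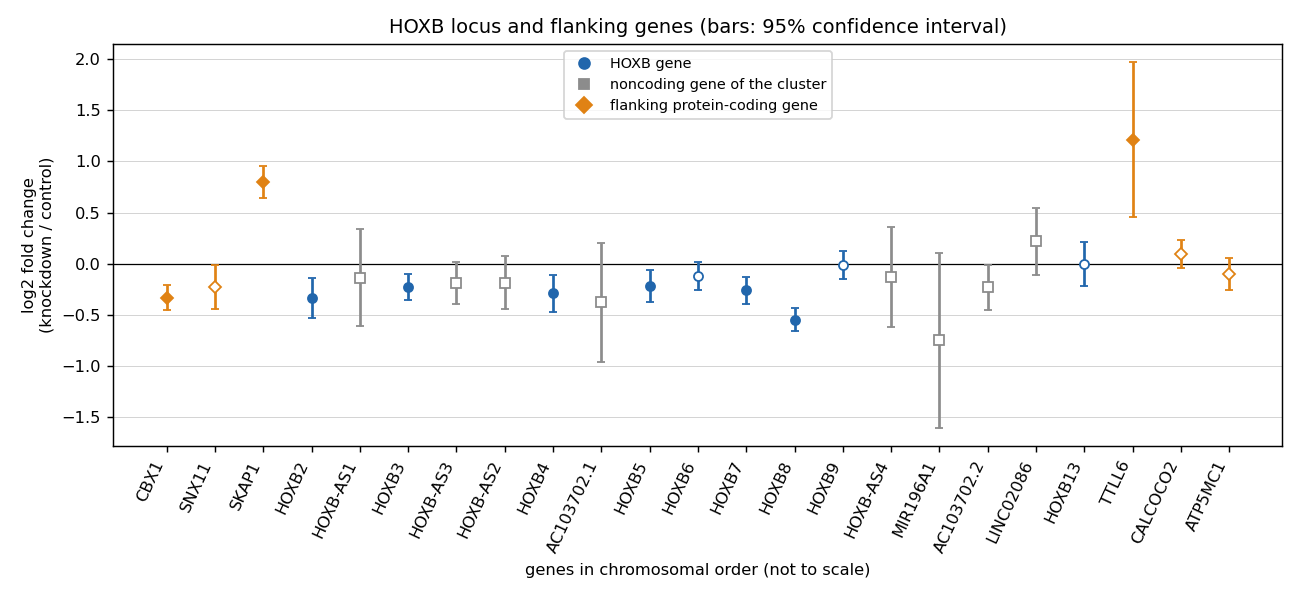
Log2 fold change, knockdown over control, of the tested genes of the HOXB locus in chromosomal order, with 95% confidence intervals. Circles are HOXB genes, squares noncoding genes of the cluster and diamonds the 3 nearest tested protein-coding genes on each side, and filled symbols passed an adjusted p of 0.05 (edgeR). SKAP1 at 0.80 and TTLL6 at 1.21 stand above 0 on the 2 sides of the lower HOXB genes.

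In the HOXA cluster, on chromosome 7, only HOXA13 of 11 tested genes passed. HOXA13, the most posterior gene, is needed for limb, hindgut and urogenital development. It measured 13.2 CPM in each control library and 15.9, 17.4 and 15.5 CPM in knockdown. Every knockdown library lay above the controls, at a log2 fold change of 0.30 (SE 0.091, edgeR adjusted p = 0.0207). The call was lost without control library 1, control library 3, knockdown library 1 or knockdown library 2 (edgeR adjusted p = 0.0559, 0.0711, 0.0593 and 0.0652), at log2 values between 0.25 and 0.33 over the 6 fits that left a library out. The log2 ratio of HOXA13 to its neighbour HOXA11 was -0.22, 0.02 and 0.05 in controls and 0.42, 0.76 and 0.17 in knockdown, with no overlap (exact two-sided permutation p = 0.1, the smallest possible). This pair too was picked with the genes' values known. Part of the difference lies in HOXA11, which had a log2 fold change of -0.19 that did not pass.

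HOTTIP, a long noncoding RNA that starts beside HOXA13 on the opposite strand and is known to bind WDR5 and to act on posterior HOXA genes, measured 0.584, 0.602 and 0.559 CPM in controls and 1.03, 0.870 and 0.974 CPM in knockdown. Its groups did not overlap, but it did not pass at this depth (log2 fold change 0.72, SE 0.308, edgeR adjusted p = 0.101). HOTTIP covers 1.69% of the exonic bases of HOXA13. The promoter windows of both genes (250 bases before to 50 after the start, RefSeq, GRCh38.p14) overlap by 171 bases. The HOXA13 window is printed for this shared stretch, from chr7:27200042-27200341 on the minus strand, with CG pairs in capitals; the HOTTIP window is chr7:27200171-27200470 on the plus strand.
HOXA13: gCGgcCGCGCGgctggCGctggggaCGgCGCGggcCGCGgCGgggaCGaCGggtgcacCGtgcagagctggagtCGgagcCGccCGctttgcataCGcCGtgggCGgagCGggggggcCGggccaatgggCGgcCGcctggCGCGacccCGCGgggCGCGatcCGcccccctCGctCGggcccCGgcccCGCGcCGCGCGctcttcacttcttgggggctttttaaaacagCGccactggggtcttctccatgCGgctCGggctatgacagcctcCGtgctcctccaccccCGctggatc

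The window is 76.3% G or C and holds 44 CG pairs. Promoter windows were found for 19 of the 39 HOX genes, 26 windows in all, with a median of 22.5 CG pairs where all 34943 promoter windows have a median of 14, and a median G or C content of 58.0% where all windows have 58.7%. The letters TATAAA, on either strand, stood in 5 of the 26 windows (19.2%) and in 11.6% of all windows. HOXB1 was the only HOXB gene and HOXC4 the only HOXC gene with a window, so no HOX gene called lower had any. HOXA3 and HOXA10 held more than a single window each, so these values describe windows and not genes.

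The other HOXA genes overlapped between the groups. HOXA9, the most abundant of the cluster and a posterior gene known from leukaemia, measured 72.4, 78.5 and 82.3 CPM in controls and 81.7, 83.0 and 84.7 CPM in knockdown, and control library 3 lay inside the knockdown range (log2 fold change 0.10, edgeR adjusted p = 0.275). HOXA5, studied as a gene that opposes stem cell traits in the colon, had 16.4 to 17.3 CPM in controls and 16.1 to 18.4 in knockdown, with a 95% interval of -0.18 to 0.20 on the log2 scale. HOXA2, HOXA3, HOXA6 and HOXA11 had negative values, between -0.23 and -0.09, and HOXA4 and HOXA10 positive ones of 0.26 and 0.05. The value of HOXA7, 0.00, stands for a gene of which 62.5% of exonic bases lie opposite exons of HOXA-AS3. Around the cluster, the flanking genes SKAP2, an adaptor protein gene, and EVX1, a homeobox gene related to the HOX genes, were higher, at 0.26 (SE 0.066) and 1.46 (SE 0.498), and passed in 5 and 3 of the 6 fits that left a library out. EVX1 did not pass with DESeq2 or with the abundance trend removed and was not tested where 10 counts were required in every library.

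In the HOXC cluster, on chromosome 12, 1 of 9 tested genes passed. HOXC6, a central gene often raised in carcinomas, measured 21.0, 19.3 and 17.5 CPM in controls and 17.2, 15.4 and 15.5 CPM in knockdown. The groups were separated by a narrow gap, and it fell by 0.27 on the log2 scale (SE 0.094, edgeR adjusted p = 0.0456). It passed in 1 of the 6 fits that left a library out, the one without control library 3, and the adjusted p ranged up to 0.204, without control library 1. Without control library 2 it was 0.0696, and without knockdown library 1, 2 or 3 it was 0.0506, 0.0880 and 0.104 (edgeR), and with at least 10 counts required in every library it was 0.0505. HOXC6 shares 15.7% of its exonic bases with HOXC4, HOXC5 or HOXC9 on the same strand.

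HOXC9 and HOXC10, posterior neighbours of HOXC6, were also below the controls in all knockdown libraries without passing the test. HOXC9 measured 8.21, 8.47 and 8.74 CPM in controls and 7.56, 6.74 and 6.82 CPM in knockdown, at a log2 fold change of -0.27 (SE 0.112, edgeR adjusted p = 0.0926). HOXC10 measured 28.4, 27.7 and 28.2 CPM in controls and 26.9, 26.997 and 25.01 CPM in knockdown, at -0.10 (SE 0.074, edgeR adjusted p = 0.379). HOXC8 overlapped, with 13.8 to 14.9 CPM in controls and 12.9 to 14.6 CPM in knockdown, as did HOXC4, HOXC11, HOXC12 and HOXC13. HOXC5 had 6, 10 and 8 counts in controls and 24, 9 and 12 in knockdown, where knockdown library 1 stood alone, and 59.9% of its exonic bases are shared with other rows on the same strand. HOTAIR, the long noncoding RNA between HOXC11 and HOXC12 that is known to bind PRC2, measured 21.0 to 22.7 CPM in controls and 19.8 to 22.5 in knockdown (log2 fold change -0.04). Of the flanking genes, ATF7, a transcription factor gene, was higher by 0.22 (SE 0.076, edgeR adjusted p = 0.0434), with a pass in 1 of those 6 fits and none with DESeq2 or with no low-count filter.

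In the HOXD cluster, on chromosome 2, no gene passed. HOXD1, the most anterior gene, held 4, 5 and 6 counts in controls and 15, 11 and 14 in knockdown. All knockdown libraries were above the controls, at a log2 fold change of 1.19 with a wide interval of 0.23 to 2.14 (edgeR adjusted p = 0.0661). Of its exonic bases, 58.1% lie opposite exons of HAGLR or AC009336.3. HAGLR, a long noncoding RNA that overlaps the start of HOXD1 on the opposite strand, was higher, with 22.9, 27.5 and 24.2 CPM in controls and 33.4, 35.3 and 32.1 CPM in knockdown. The groups did not overlap, and the log2 fold change was 0.44 (SE 0.082, edgeR adjusted p = 0.000821), with a pass in each of the 6 fits that left a library out.

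HAGLROS, which overlaps HAGLR on the opposite strand, was lower, with 5.56, 5.59 and 4.67 CPM in controls and 3.30, 3.62 and 4.20 CPM in knockdown (log2 fold change -0.51, SE 0.150, edgeR adjusted p = 0.0199), and it passed in 3 of those 6 fits. HAGLR and HAGLROS were the only 2 to pass among 25 tested noncoding genes of the clusters, of 62 annotated. This is 8% of those tested, where 25.2% of all tested genes passed. The posterior gene HOXD10 had 5.80 to 6.46 CPM in controls and 6.21 to 7.65 in knockdown (log2 fold change 0.17), and HOXD13, the gene of synpolydactyly, 2.06 to 3.31 and 2.55 to 3.52 CPM (0.14). HOXD9 and HOXD11 had values of -0.10 and -0.13. Of the flanking genes, ATP5MC3, which encodes a subunit of the mitochondrial ATP synthase, was lower at -0.19 (SE 0.054, edgeR adjusted p = 0.0154), with a pass in 4 of those 6 fits and none with the abundance trend removed.

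By position within the clusters, calls for lower transcripts stood in the anterior and central groups. Of all tested genes 11.9% were lower, and of 13683 tested protein-coding genes 1966 were. Of 6 tested anterior genes (paralog groups 1 to 3), 2 were lower, HOXB2 and HOXB3. Of 14 tested central genes (groups 4 to 8), 5 were lower, HOXB4, HOXB5, HOXB7, HOXB8 and HOXC6. Of 15 tested posterior genes (groups 9 to 13), none was lower by edgeR or DESeq2 and 1 was higher, HOXA13, and 2 had an unadjusted p below 0.05, HOXA13 and HOXC9. HOXC9 passed as lower once the abundance trend was removed (log2 fold change -0.35, adjusted p = 0.0311 by limma and edgeR). The difference between position groups was not tested, and position and cluster go together here, since 6 of the 7 lower genes are HOXB genes.

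Summed RPKM of the central genes was 199, 196 and 202 in controls and 163, 159 and 168 in knockdown, with no overlap. Much of this difference was HOXB8 alone, at means of 68.3 and 46.8 RPKM. The posterior genes summed to 91.7, 90.2 and 95.8 RPKM in controls and 91.9, 93.3 and 92.5 RPKM in knockdown, where the means were 92.6 in both groups. Set side by side within a paralog group, HOXB8 had a log2 fold change of -0.55, HOXC8 of -0.04 and HOXD8 of -0.08, and HOXB7 had -0.26 and HOXA7 0.00. In groups 4 to 6, some members that did not pass had values close in size to those of HOXB genes that did. HOXC4 had -0.21, HOXA6 -0.23 and HOXA4 0.26 in the other direction, beside HOXB4 at -0.29 and HOXB5 at -0.22. HOXC5, at low counts, had 0.69. Differences between paralogs were not tested. In group 6 the member that passed was HOXC6, and in group 9 none of 4 tested genes passed by edgeR, where HOXC9 alone had an unadjusted p below 0.05.

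The partners of HOX proteins on DNA, the TALE homeodomain factors, were measured alongside. Of 8 tested PBX, MEIS and PKNOX genes, none was lower by edgeR or DESeq2, nor was any lower at an unadjusted p of 0.05 (edgeR). PBX4, a cofactor that binds DNA together with HOX proteins, measured 18.8, 19.0 and 20.0 CPM in controls and 23.2, 22.3 and 23.2 CPM in knockdown, with no overlap. It was higher by 0.25 (SE 0.079, edgeR adjusted p = 0.0268) and passed in 1 of the 6 fits that left a library out and not with no low-count filter, and MEIS1, MEIS2 and MEIS3 did not pass.

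Genes of complexes known to set HOX transcription are given by complex, each count to be read against the 25.2% of all tested genes that passed. Of 11 PRC2 genes, which encode the complex that methylates H3K27 on silent HOX clusters, JARID2 was higher (log2 fold change 0.21) and PHF19 lower (-0.30), and EZH2 had a value of -0.15 that did not pass. Of 19 PRC1 genes, BMI1 (-0.50, SE 0.098) and CBX8 (-0.36, SE 0.120) were lower and PHC2 (0.29, SE 0.064) higher. Over the 6 fits that left a library out, JARID2 passed in 1 and CBX8 in 3, JARID2 did not pass with no low-count filter, and PHF19, BMI1 and PHC2 in all. Of 12 genes of the MLL complexes, H3K27 demethylases and related factors, which act on active HOX genes, HCFC1 was lower (-0.37, SE 0.060), and KMT2A, MEN1, WDR5, KDM6A and KDM6B did not pass. Of 8 genes for CTCF and cohesin, which shape the domains of the clusters, CTCF (-0.31), SMC1A (-0.21) and STAG1 (-0.40) were lower and none was higher by edgeR or DESeq2, nor at an unadjusted p of 0.05 (edgeR). CDX2, the gut homeobox gene upstream of HOX genes, had 39.8 to 43.0 CPM in controls and 41.4 to 44.0 in knockdown (log2 fold change 0.04), and among the 4 tested CDX, ParaHox and EVX genes EVX1 passed, as given above.

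Retinoic acid induces HOX genes from their anterior ends, and 5 of the 11 tested genes of its pathway were higher in knockdown, where 13.3% of all tested genes were higher, and none lower by edgeR, DESeq2 or an unadjusted p of 0.05 (edgeR), at a median log2 fold change of 0.25. They were the receptor gene RARA (0.36, SE 0.088), the binding protein genes CRABP1 (1.23, SE 0.401) and CRABP2 (0.20, SE 0.057), the retinal reductase gene DHRS3 (0.42, SE 0.072) and the retinol transporter gene STRA6 (0.25, SE 0.062). CRABP1 and CRABP2 passed in 2 of the 6 fits that left a library out, STRA6 in 5, and RARA and DHRS3 in all. CRABP1 did not pass with DESeq2 or with the abundance trend removed and was not tested where 10 counts were required in every library. RARA measured 37.2, 30.8 and 31.9 CPM in controls and 43.1, 38.2 and 47.2 CPM in knockdown, with no overlap. The degrading enzyme genes CYP26A1 and CYP26B1, both near 1 CPM or below, did not pass. Of the 13683 tested protein-coding genes, 2002 were higher. The gene lists were chosen with earlier results of these data known, so the share of retinoic acid genes that passed is a description only. The part of any listed gene in the HOX levels was not tested.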

How the data were processed

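RNA-seq of 3 control and 3 CNOT7 knockdown libraries was analysed from the count table deposited by the authors, with raw whole-number counts per gene. Annotation columns of the deposited table (gene name, type, position and length) were also used. The submitters' processing notes list CASAVA 1.8, fastp, HISAT2 2.0.5, featureCounts 1.5.0-p3 and DESeq2 1.20.0 and the build GRCh38, with no role; strand and multi-mapping settings were not given in the sources used here. Every column of per-sample values was used.

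Counts were fitted with edgeR 4.0.16 (R 4.3.3; filterByExpr, TMM factors, glmQLFit and glmQLFTest) without covariates over all 6 libraries, and p-values were adjusted by Benjamini-Hochberg over the 17574 genes that passed the filter, at a threshold of 0.05. The script was tested on simulated data. RPKM were computed from TMM-scaled counts and the deposited lengths. Exon overlaps and 3′ UTRs came from GENCODE 29, in which 58724 of 58735 gene identifiers had the same start and end, and microRNA and promoter sequences from RefSeq. Depth was higher in every knockdown library (27523812 to 29104872 counts) than in any control library (23788451 to 25982493). The SE of a log2 fold change was computed as its absolute value over the square root of the edgeR F statistic. The 95% intervals were built from this SE with a t distribution. Intervals from counts cover the spread between these libraries only.

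Genes named were CNOT7, the tested HOX genes, list members past the threshold, cluster noncoding genes (within 10 kb) and the 3 nearest tested genes on each side past the threshold, and microRNA genes and sites; other genes without a pass are named with values as contrast. HOX members and gene lists were chosen with earlier results of these data known. Alternatives were DESeq2 1.42.0, DESeq2-type size factors (RLE), no filter, at least 10 counts in every library, a fold change minimum, removal of an abundance trend with limma 3.58.1, each library left out, and a replicate block. Replicate numbers carry no stated pairing. No 2 libraries of a group were copies (chi-square per degree of freedom 3.05 to 9.62). The values of 2 genes are not reported here.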

Additional observations from a re-analysis of the deposited data

How the results depend on the processing

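Signs and calls of the 35 tested HOX genes were recomputed under each alternative. HOX genes called higher and lower numbered 1 and 7 with DESeq2, with RLE factors, with no low-count filter and with an abundance trend removed, and 1 and 6 with at least 10 counts in every library, where HOXC6 missed. With the trend removed HOXB5 missed, HOXC9 passed, and the HOX median log2 fold change was -0.15, where without each library in turn it was -0.09 to -0.06. Without each library the numbers were 0 to 1 higher and 4 to 6 lower, and 1367 to 2219 of all genes were lower. With a minimum log2 fold change of 1, no HOX gene remained (0 higher and 0 lower), and 492 genes were higher and 146 lower in all.

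The labels state no pairing of same-numbered libraries of the 2 groups. Their deviations correlated at 0.02, 0.15 and -0.02, and not every library correlated best with its own number. These values do not settle whether such libraries were handled together. A replicate block gave 1 HOX gene higher and 8 lower, with HOXB6 added (edgeR adjusted p = 0.0421). Over all genes it moved higher calls from 2329 to 3202 and lower calls from 2095 to 3306. Calls numbered 4 for PRC2, 7 for PRC1, 4 for noncoding genes and 12 for flanking genes with the block.

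TALE cofactors and PRC2 genes each numbered 1 call without a filter, EVX1 missed (0 calls) with DESeq2 or with the trend removed and was not tested with 10 counts, and noncoding calls were 4 with the trend removed. Without each library, calls were 1 to 2 for TALE cofactors, 1 to 4 for PRC2, 2 to 5 for PRC1, 2 to 6 for the retinoic acid pathway, 0 to 1 for CDX, ParaHox and EVX genes, 1 to 3 for noncoding and 3 to 8 for flanking genes. Causes were not tested.

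Values near 0 changed sign. HOXA7 was -0.0060 with DESeq2, -0.0057 with RLE, -0.016 with no filter and -0.063 with the trend removed. HOXA5 was -0.0056 and HOXC11 -0.0095 with no filter, and -0.011 and -0.12 with the trend removed, where HOXB9 was 0.028, and HOXB13 was 0.00037 with 10 counts. Without each library, ranges crossed 0 for HOXA5 (-0.053 to 0.036), HOXA7 (-0.14 to 0.13), HOXB9 (-0.046 to 0.027), HOXB13 (-0.081 to 0.037), HOXC11 (-0.15 to 0.073), HOXC12 (-0.30 to 0.26), HOXC13 (-0.13 to 0.0012), HOXD8 (-0.18 to 0.0061), HOXD9 (-0.24 to 0.014) and HOXD13 (-0.048 to 0.28). Depth left HOXB1, HOXD3, HOXD4 and HOXD12 out of the test.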
